A study of Mus musculus with 24 samples.

Results

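Midbrain cultures kept for 13 d in 3% O2 were compared with midbrain cultures kept for 13 d in 21% O2, the level of room air. The comparison used 6 of the 24 arrays of the series, 3 at each oxygen level, all from array run 1 by the labels. Every probe set with a gene symbol was included, which gave 23410 probe sets. For counts of genes, each gene was represented by its probe set with the highest mean, which gave 19946 genes. The series profiled primary cultures labelled as neural stem cells, from the cortex and the midbrain (mesencephalon) of C57Bl/6 mice at embryonic day 14, after 48 h or 13 d in expansion medium. Both groups shared the strain, stage, region, medium and culture time and carried no transgene by the labels. Low-oxygen cultures received 3% O2 with 92% N2 and 5% CO2, and the gas given to the 21% O2 cultures is not described further in the sources used here. Each array was hybridised with cDNA made from 100 ng of RNA extracted from a 6-well culture.

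Cells sense oxygen through prolyl hydroxylases of the EGLN family, which need oxygen to mark the HIF alpha subunits for destruction by the VHL ubiquitin ligase. When oxygen is low, HIF alpha protein persists, pairs with ARNT and switches on genes for glucose uptake, glycolysis, pH control and vessel growth. Neural stem cells of the fetal brain sit in tissue with much less oxygen than room air, and Notch signalling, bHLH proneural factors and growth factors govern whether they renew or commit to neurons and glia. These statements are background and were not measured here.

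Values are log2 signal levels as the authors deposited them, listed in the order of array 1, 2 and 3, and a change is the 3% O2 mean minus the 21% O2 mean. The words rose and fell are used only for an adjusted p under 0.05 in limma, over all 23410 probe sets. Whether the 3 arrays of a group stand for separate cultures or animals is not stated by the labels, and the p-values therefore cover the spread between arrays alone, which may be technical. Standard errors, given after ±, and p-values come from a fit that pools the spread over all 24 arrays of the series. They can differ from the spread of the 6 arrays listed. Levels of different genes are not compared, since probe sets differ in brightness.

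Array medians lay between 7.36 and 7.41. Pearson correlations were between 0.995 and 0.999 within a group and between 0.986 and 0.988 across the groups, over probe sets. The first principal component of the 6 arrays carried 77.8% of the variance and separated the oxygen levels. The second carried 14.1% and set 3% O2 array 2 apart from the other arrays. That array was the lowest of its group in 65.9% of the genes that rose and in 44.8% of those that fell. Values without it are given for some genes only, and their absence elsewhere does not mean that the array made no difference. The progenitor label was checked against 3 markers of neural stem cells. Sox2, a transcription factor of neural progenitors, measured 12.30, 12.16 and 12.38 at 3% O2 and 12.35, 12.34 and 12.35 at 21% O2. Nestin (Nes), an intermediate filament of the same cells, measured 11.39, 11.17 and 11.46 against 11.63, 11.58 and 11.56. Vimentin (Vim) measured 13.48, 13.35 and 13.48 against 13.55, 13.54 and 13.56. None of the 3 genes passed the test (adjusted p = 0.582, 0.32 and 0.104), and the Sox2 values of the groups overlapped. In Nes and Vim every 3% O2 array lay below every 21% O2 array. Of the full list of 16 such markers, 1 rose and 3 fell, as given below. Markers of microglia were low: the group means of 19 of 21 genes lay below a level of 7 in both groups, 0 rose and 0 fell. As a gauge of levels without expression, 1015 olfactory receptor genes had a median of 5.33 over the 6 arrays and a 95th percentile of 6.46, and 1 rose and 2 fell.

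Low oxygen went with changes in a large share of the transcriptome. Of 19946 genes, 2341 rose (11.7%) and 2652 fell (13.3%), which is 25% in either direction. Of the 23410 probe sets, 5584 changed (23.9%). Most changes were small, with a median of 0.44 among the genes that rose and -0.37 among those that fell, and a median of -0.01 over all genes. Changes above 2-fold were less even: 253 genes rose and 130 fell by more than that, and 20 rose and 7 fell by more than 4-fold. The groups did not overlap in 41.6% of genes. The share of genes that passed the test was 2.15% among the 4987 genes of lowest mean level, 17% and 40.3% in the next groups of 4986 genes each, and 40.7% among the 4987 brightest.

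The largest rise was that of Cd93, a C-type lectin-like receptor best known from endothelial cells. It measured 10.88, 10.60 and 10.87 at 3% O2 and 7.16, 7.00 and 7.53 at 21% O2. The change was 3.55 ± 0.32 (SE from the 24-array fit, n = 3 arrays a group), or 11.7-fold, with an adjusted p of 1.22e-07. Col12a1, which encodes a collagen that decorates fibrils, measured 10.86, 10.58 and 10.76 against 7.66, 7.91 and 7.96 (change 2.89 ± 0.26, adjusted p = 1.19e-07). The lowest 3% O2 array lay above the highest 21% O2 array by more than 2 log2 units in both genes. Ier3, an early response gene that limits cell death, measured 10.10, 10.10 and 10.12 against 7.06, 7.73 and 7.54 (change 2.67 ± 0.16). Adamts14, a procollagen-processing protease, rose by 2.59 ± 0.21 and Pfkp, the platelet form of phosphofructokinase, by 2.50 ± 0.21. Lrrc32 (GARP), a membrane anchor of latent TGF-beta, measured 10.03, 9.62 and 9.91 against 7.27, 7.43 and 7.47 and had the smallest adjusted p among the 12 largest rises (change 2.46 ± 0.11, adjusted p = 2.31e-11). The remaining 6 of these 12 genes were Phospho1 (2.48), the lipocalin Apod (2.43), Mamdc2 (2.39), the matrix protein periostin Postn (2.33), the netrin receptor Unc5b (2.26) and the vessel growth factor Angpt2 (2.25), with these log2 changes. In Unc5b and Mamdc2, 3% O2 array 2 lay about 1 log2 unit below the other 3% O2 arrays and still above every 21% O2 array.

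Gjc3, a connexin of myelinating glia, had the largest fall. It measured 9.48, 8.73 and 9.47 at 3% O2 and 11.96, 11.83 and 11.91 at 21% O2, a fall of 2.67 ± 0.35 (adjusted p = 1.24e-05). Gpr17, a receptor of committed oligodendrocyte precursors, measured 8.98, 8.13 and 9.08 against 11.12, 10.73 and 10.88 (change -2.18 ± 0.42, adjusted p = 0.000595). Abca1, which exports cholesterol from cells, measured 8.62, 7.93 and 8.66 against 10.65, 10.37 and 10.48 (change -2.09 ± 0.24, adjusted p = 2.12e-06). In all of these, every 3% O2 array lay below every 21% O2 array, and 3% O2 array 2 was the lowest. In bulk RNA, fewer cells of a type and less RNA per cell cannot be told apart. Sncaip, which encodes the synuclein-binding protein synphilin-1, had the smallest standard error among the 12 largest falls, with 7.72, 7.76 and 7.69 against 9.91, 9.72 and 9.78 (change -2.08 ± 0.08, adjusted p = 1.28e-11). The other members of that group were the GABA receptor subunit Gabbr2 (-2.18), the kinase Prkcq (-2.15), the cardiac actin Actc1 (-2.09), the melanocortin receptor Mc5r (-1.97), the sodium-calcium exchanger Slc24a3 (-1.96), the cytokine signalling inhibitor Socs2 (-1.94), Cyp4f15 (-1.90) and the lipid amidase Naaa (-1.85). The 21% O2 values of Postn (6.15 to 6.18) and the 3% O2 values of Mc5r (6.13 to 6.29) lay under the 6.46 given above for olfactory receptor genes, so the sizes of these changes are uncertain. A second probe set of Socs2 fell by less (-0.45, adjusted p = 0.0007). All 24 genes with the largest rises and falls kept their call under each alternative setting that was run, including the omission of any one array.

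**Figure D1:**
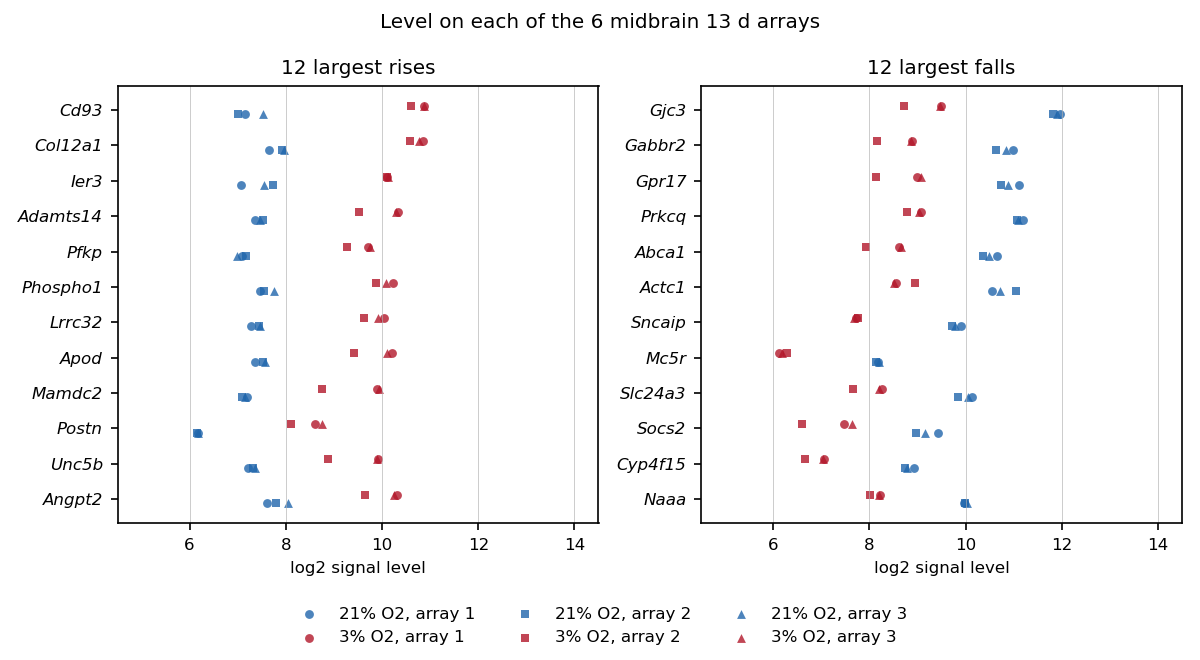
Log2 signal level (x axis) of the 12 largest rises and the 12 largest falls, 1 symbol for each of the 6 arrays (red, 3% O2; blue, 21% O2; circle, square and triangle for arrays 1, 2 and 3). The groups do not overlap in any of these genes, and the red squares of 3% O2 array 2 lie left of the other red symbols in most of them.

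The oxygen sensing machinery itself changed in both directions. Of 10 measured components, 5 rose (50%) and 4 fell (40%), beside 11.7% of all genes that rose and 13.3% that fell. Their mean level was 10.15 at 3% O2 and 9.87 at 21% O2. That lies in the range of the 4987 brightest genes, of which 40.7% passed in either direction. Hif3a, the alpha subunit that includes inhibitory isoforms, measured 8.52, 7.90 and 8.36 at 3% O2 and 7.03, 7.01 and 7.09 at 21% O2 (change 1.21 ± 0.15, adjusted p = 7.26e-06). Egln3, a prolyl hydroxylase that is itself a HIF target, measured 12.24, 12.16 and 12.23 against 10.85, 11.02 and 11.09 (change 1.22 ± 0.21, adjusted p = 0.000228). Egln1, the main prolyl hydroxylase, rose by 0.80 ± 0.13 (adjusted p = 0.000117). The mRNA of the central subunit moved the other way: Hif1a measured 11.01, 10.90 and 11.12 against 11.41, 11.40 and 11.39, a fall of 0.39 ± 0.06 (adjusted p = 8.44e-05). Falls were also seen in the partner subunit Arnt2 (-0.43) and the hydroxylase Egln2 (-0.30). All arrays of these 6 genes were separated by oxygen level. Smaller shifts in Arnt (0.27, adjusted p = 0.0225), in Epas1, which encodes HIF-2 alpha (0.71, adjusted p = 0.0389), and in Hif1an, which encodes the asparagine hydroxylase FIH (-0.27, adjusted p = 0.0131), were less firm. The call of Arnt was lost without 3% O2 array 1 or 3 or 21% O2 array 1 or 2, that of Epas1 without any array other than 3% O2 array 2, and that of Hif1an without 3% O2 array 1 or 2 or 21% O2 array 1 or 3, with adjusted p up to 0.079, 0.152 and 0.0825. The count of components that rose was 3 without 3% O2 array 1 or 3 or 21% O2 array 1 or 2. Vhl did not pass the test (-0.04, adjusted p = 0.859).

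HIF targets other than the glycolytic genes were mostly higher in low oxygen. Of 37 measured targets, 24 rose and 1 fell, and the median change was 0.87, beside 11.7% of all genes that rose and the all-gene median of -0.01. This list, like the others below, was drawn up with earlier results of these data known. Beside each list count below stand the all-gene shares of 11.7% that rose and 13.3% that fell. Those shares include dim genes, few of which passed, and are low gauges for lists of bright genes. Counts of 1 or 2 genes in a list often changed when an array was left out. Adm encodes adrenomedullin, a vasodilator peptide. It measured 11.33, 11.26 and 11.33 at 3% O2 and 8.92, 9.30 and 9.36 at 21% O2 (change 2.11 ± 0.16, adjusted p = 1.68e-08). Vegfa, the main vascular growth factor, measured 12.64, 12.52 and 12.62 against 11.12, 11.38 and 11.38 (change 1.30 ± 0.23, adjusted p = 0.000208). For both genes the 21% O2 arrays varied more than the 3% O2 arrays, with array 1 the lowest. Large rises were also seen in Stc2, a secreted glycoprotein (2.00), Ndufa4l2, a mitochondrial protein that restrains complex I (1.75), Car12, a carbonic anhydrase of the cell surface (1.62), Ero1a, an oxidase of the endoplasmic reticulum (1.61), Bhlhe40, a transcriptional repressor (1.49), Plod2, a collagen lysyl hydroxylase (1.16), and the transferrin receptor Tfrc (1.05).

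Some familiar targets changed less, varied between arrays or did not pass. Car9, the carbonic anhydrase often used as a hypoxia marker, measured 8.55, 7.10 and 8.60 at 3% O2 and 6.89, 7.16 and 7.19 at 21% O2. The groups overlapped, because 3% O2 array 2 lay among the 21% O2 arrays. Among 12 carbonic anhydrases 5 rose and 0 fell, and 3 rose without 3% O2 array 1 or 3. The change of Car9 was 1.00 ± 0.26 (adjusted p = 0.00683), it was 1.49 without that array, and it did not pass without 3% O2 array 1 (0.77, adjusted p = 0.057) or 3 (0.74, adjusted p = 0.0581). Pdk1, the kinase that shuts pyruvate dehydrogenase, rose by 0.76 ± 0.23 (adjusted p = 0.019), its call was lost without 3% O2 array 1 or 2 or 21% O2 array 1 (highest adjusted p = 0.0737). The mitophagy receptor gene Bnip3 measured 12.77, 12.72 and 12.83 against 11.88, 12.06 and 12.13. Its groups did not overlap, but the change of 0.75 ± 0.30 did not pass (adjusted p = 0.0816, or 0.0441 with the replicate number as a block), and a second probe set of the gene rose by 1.00 (adjusted p = 0.0189). That standard error draws on all 24 arrays of the fit and not on these arrays alone. Higd1a gave 0.59 (adjusted p = 0.0537, or 0.0449 with the block) and 0.63 on a second probe set that rose (adjusted p = 0.037). Ddit4, an inhibitor of mTORC1, did not pass either (0.46, adjusted p = 0.0661). The sole target that fell was Mxi1, a MYC antagonist (-0.34, adjusted p = 0.00906), and its adjusted p was 0.0543 without 3% O2 array 2.

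Glucose transporters and glycolytic enzymes were higher in low oxygen. Of 18 genes for glycolysis and for glucose or lactate transport, 11 rose and 1 fell, with a median change of 0.42. Slc2a3, the neuronal-type glucose transporter, measured 12.12, 11.76 and 12.14 at 3% O2 and 9.85, 10.11 and 10.19 at 21% O2 (change 1.96 ± 0.23, adjusted p = 2.49e-06). Slc2a1, the widespread glucose transporter, measured 13.09, 12.98 and 13.10 against 11.87, 12.09 and 12.13 (change 1.02 ± 0.20, adjusted p = 0.000796). The groups were well apart in both. Hexokinase 2 (Hk2) rose by 1.07, the enolase gene Eno2 by 0.79 and the lactate transporter gene Slc16a1 by 0.74. The 2 lactate dehydrogenase genes moved in opposite directions. Ldha, whose subunit favours lactate formation, measured 13.50, 13.50 and 13.62 against 12.96, 12.99 and 13.08 (change 0.53 ± 0.10, adjusted p = 0.000753). Ldhb, whose subunit favours lactate use, measured 10.43, 10.74 and 10.39 against 11.38, 11.52 and 11.30 (change -0.88 ± 0.11, adjusted p = 6.48e-06). Tpi1 (0.44, adjusted p = 0.071) and Pgk1 (0.33, adjusted p = 0.0931) did not pass, although their groups did not overlap. With the replicate block both passed (adjusted p = 0.0295 and 0.0046).

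The HIF dimer binds DNA at a short core, ACGTG or GCGTG, and the search covered ACGTG alone. The RefSeq windows of GRCm38.p6 were cut to the 250 bases upstream of the annotated start so that no transcribed base is shown. They were searched for ACGTG on both strands, and matches to GCGTG were not counted. They are shown for 4 genes that rose, because these span the range from several ACGTG matches to none. Where a gene had several windows, as Ldha did, that with the most matches is shown. Capitals mark ACGTG, and CACGT, its reverse complement, each of which overlaps the other where CACGTG stands. The Slc2a1 window is chr4:119108495-119108744 on the plus strand, that of Ldha is chr7:46845554-46845803 on the plus strand, that of Egln3 is chr12:54203875-54204124 on the minus strand and that of Adm is chr7:110627407-110627656 on the plus strand.
Slc2a1: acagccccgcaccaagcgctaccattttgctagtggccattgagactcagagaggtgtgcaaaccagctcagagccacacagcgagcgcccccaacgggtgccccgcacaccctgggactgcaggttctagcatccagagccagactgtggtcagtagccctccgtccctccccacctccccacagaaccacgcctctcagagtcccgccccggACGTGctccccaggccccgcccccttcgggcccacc
Ldha: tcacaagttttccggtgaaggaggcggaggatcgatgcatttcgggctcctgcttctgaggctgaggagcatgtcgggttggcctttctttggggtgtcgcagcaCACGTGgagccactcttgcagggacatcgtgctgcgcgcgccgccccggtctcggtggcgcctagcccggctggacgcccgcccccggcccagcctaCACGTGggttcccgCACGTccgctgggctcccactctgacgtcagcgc
Egln3: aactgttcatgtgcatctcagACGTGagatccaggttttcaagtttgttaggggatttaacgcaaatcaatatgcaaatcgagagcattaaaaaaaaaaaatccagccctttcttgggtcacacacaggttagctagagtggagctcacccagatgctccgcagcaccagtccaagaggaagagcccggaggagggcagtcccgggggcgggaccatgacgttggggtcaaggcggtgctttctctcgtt
Adm: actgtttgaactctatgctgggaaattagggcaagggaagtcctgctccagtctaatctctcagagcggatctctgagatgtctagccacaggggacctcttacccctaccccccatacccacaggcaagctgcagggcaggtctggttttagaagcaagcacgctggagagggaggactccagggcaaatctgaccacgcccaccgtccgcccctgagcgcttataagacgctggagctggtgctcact
The Slc2a1 and Egln3 windows hold 1 ACGTG each, the Ldha window holds 2 ACGTG and 3 CACGT, 2 of which overlap as CACGTG. The Adm window holds neither of these, which does not mean that it lacks the GCGTG form. ACGTG was present on either strand in 16.6% of 32851 windows. A gene counted as holding it when any of its windows did, which gave 20.9% of the 15619 measured genes with a window. It was present in 28.5% of 1883 genes that rose, 23.1% of 2124 that fell and 19.3% of 11612 that did not pass. Among 45 genes of the HIF target and glycolysis lists with a window, 29 held it (64.4%), namely 20 of 27 that rose and 9 of 18 that did not rise. Counted by window, 33 of the 68 windows of these lists held it (48.5%), beside 16.6% of all windows. A match of 5 letters is a description of the sequence and not a binding site.

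Genes of mitochondrial metabolism showed no common direction. Of 27 genes of the pyruvate dehydrogenase complex and the TCA cycle, 6 rose and 2 fell, with a median of 0.07. Pyruvate carboxylase (Pcx), which feeds pyruvate into the cycle as oxaloacetate, measured 9.54, 9.54 and 9.52 at 3% O2 and 10.78, 10.89 and 10.82 at 21% O2 (change -1.30 ± 0.13, adjusted p = 3.36e-07). Idh3a, a subunit of isocitrate dehydrogenase, rose by 0.67 ± 0.07 (adjusted p = 1.64e-06). Among 62 genes of the respiratory chain and ATP synthase 5 rose and 2 fell, shares of 8.06% and 3.23% that lie under the all-gene shares. The clearest rise there was that of Cox4i2, an isoform of cytochrome oxidase subunit 4 that is known to replace the usual one in low oxygen, with 8.70, 8.84 and 8.75 against 7.69, 7.90 and 7.86 (change 0.95 ± 0.14, adjusted p = 2.78e-05). The count of 5 was 3 without 3% O2 array 1 or 3, and that of 2 was 0 without 3% O2 array 1 or 3 or 21% O2 array 2 or 3 and 5 with quantile normalization. Of 17 genes of mitophagy and autophagy, 1 rose and 6 fell, among them the initiating kinase Ulk1 (-0.68 ± 0.05, adjusted p = 4.77e-09) and Map1lc3b, the LC3 protein of autophagosomes (-0.78 ± 0.08, adjusted p = 3.27e-07). The thioredoxin inhibitor Txnip, whose transcription follows glucose phosphate levels, measured 9.40, 9.20 and 9.48 against 10.61, 10.68 and 10.67 (change -1.29 ± 0.24, adjusted p = 0.000437). Its relative Arrdc4 fell by 1.03 ± 0.19. Of 12 metal and thioredoxin regulators, 2 rose and 4 fell.

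Amino acid transport and the genes controlled by ATF4, the transcription factor of the amino acid response, were higher at 3% O2. Of 32 listed genes, 21 rose and 2 fell, with a median of 0.47. Slc7a3, a transporter of cationic amino acids, measured 9.08, 10.25 and 9.07 at 3% O2 and 7.07, 7.49 and 7.33 at 21% O2 (change 2.17 ± 0.25, adjusted p = 2.05e-06). Slc7a5 and Slc3a2 encode the light and heavy chains of the large neutral amino acid transporter. Slc7a5 measured 12.38, 12.74 and 12.39 against 11.54, 11.48 and 11.61 (change 0.96 ± 0.08, adjusted p = 1.04e-07), and Slc3a2 rose by 0.71 ± 0.06 (adjusted p = 2.3e-08). Here 3% O2 array 2 was the highest of its group. Shmt2, the mitochondrial serine hydroxymethyltransferase, rose by 0.89 ± 0.08 (adjusted p = 1.75e-07). The alanine transaminase gene Gpt2 fell (-0.35, adjusted p = 0.0013). Of 18 cytosolic tRNA synthetases, 12 rose and 0 fell, led by Mars1 (0.87 ± 0.09, adjusted p = 7.38e-07) and Eprs (0.66 ± 0.07, adjusted p = 7.4e-07). Chaperones of the endoplasmic reticulum and the unfolded protein response gave 7 rises and 3 falls of 29, with a median of 0.11. Kdelr3, which retrieves proteins to the endoplasmic reticulum, rose by 1.54 ± 0.16 (adjusted p = 9.05e-07), while the chaperone partner Sdf2l1 fell (-0.37, adjusted p = 0.00263). Without 3% O2 array 2 this list gave 14 rises, and its count of falls was 1 without any one of the 3% O2 arrays or 21% O2 array 2.

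Targets of p53 and of the antioxidant regulator NRF2 also included more rises than falls. Of 23 p53 targets, 12 rose and 2 fell, with a median of 0.31. Phlda3, an inhibitor of AKT, measured 10.56, 10.37 and 10.54 at 3% O2 and 9.16, 9.31 and 9.39 at 21% O2 (change 1.20 ± 0.09, adjusted p = 1.37e-08). Tnfrsf10b, the death receptor for TRAIL, measured 9.44, 9.44 and 9.31 against 7.48, 7.55 and 7.72 (change 1.81 ± 0.18, adjusted p = 4.83e-07). Btg2, an antiproliferative gene that neural progenitors switch on before dividing into neurons, moved down, with 10.08, 10.39 and 10.21 against 11.21, 11.35 and 11.31 (change -1.06 ± 0.10, adjusted p = 1.72e-07). The groups were separated in all of these. Of 20 NRF2 targets and glutathione genes, 10 rose and 1 fell, with a median of 0.23. Gclc, the catalytic subunit of the enzyme that starts glutathione synthesis, rose by 1.16 ± 0.11 (adjusted p = 2.28e-07) and the exporter gene Abcc1 by 1.13 ± 0.11 (adjusted p = 1.8e-07). Nqo1, one of the best known NRF2 targets, fell, with 8.02, 8.24 and 7.97 against 8.74, 8.87 and 9.06 (change -0.81 ± 0.20, adjusted p = 0.00516).

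Most cholesterol synthesis genes rose. Of 19 synthesis genes, 12 rose and 0 fell, with a median of 0.40. Hsd17b7 measured 10.34, 10.04 and 10.40 at 3% O2 and 9.30, 9.33 and 9.51 at 21% O2 (change 0.88 ± 0.11, adjusted p = 4.88e-06). Sqle, which encodes an oxygen-consuming epoxidase of the pathway, rose by 0.66 ± 0.08 (adjusted p = 6.98e-06), and Insig1, a feedback regulator of SREBP, by 0.78 ± 0.13 (adjusted p = 0.000111). The LXR list of 11 genes gave 3 rises and 2 falls. The falls were those of the exporters Abca1, given above, and Abcg1 (-0.35, adjusted p = 0.00326). Its clearest rise was that of fatty acid synthase, Fasn (0.51 ± 0.05, adjusted p = 3.36e-07), and 1 gene was left risen without any one array other than 3% O2 array 2. Apoe, the main lipid carrier of the brain, measured 11.67, 10.46 and 11.70 against 12.59, 12.06 and 12.26. It did not pass (change -1.03 ± 0.49, adjusted p = 0.154, or 0.0454 with the replicate block), and 3% O2 array 2 lay more than 1 log2 unit under the other arrays of its group.

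**Figure D2:**
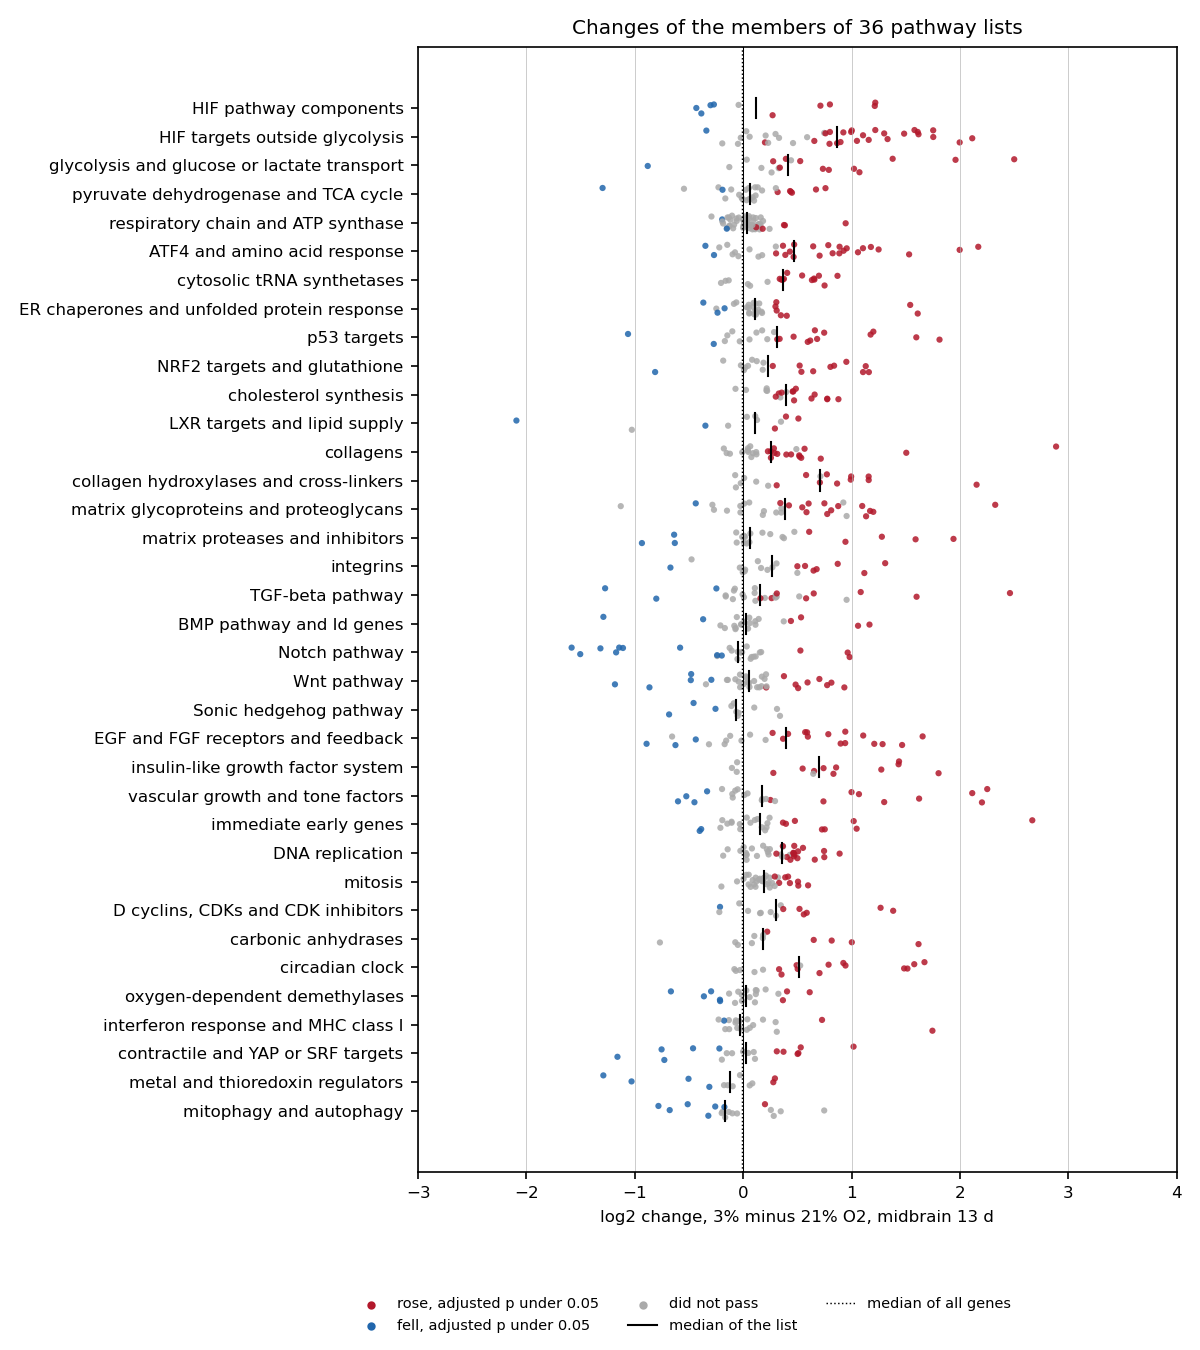
Log2 change at 13 d (x axis, 3% minus 21% O2) of every measured member of the pathway lists, 1 point per gene (red, rose; blue, fell; grey, did not pass at an adjusted p of 0.05). The black bar is the list's median and the dotted line the median of all genes; the medians of the HIF targets (0.87), the collagen hydroxylases (0.71) and the insulin-like growth factor system (0.70) lie farthest to the right, and that of mitophagy and autophagy (-0.17) farthest to the left.

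Genes for extracellular matrix and its assembly were higher in low oxygen. Of 28 collagens, 15 rose and 0 fell, and of 17 collagen hydroxylases and cross-linkers, 10 rose and 0 fell, with medians of 0.26 and 0.71. Collagens that rose numbered 9 without 3% O2 array 1 or 3 or 21% O2 array 1 or 3. Col18a1, a basement membrane collagen, measured 9.59, 8.77 and 9.36 at 3% O2 and 7.75, 7.70 and 7.75 at 21% O2 (change 1.50 ± 0.21, adjusted p = 2.41e-05). P3h2, a prolyl 3-hydroxylase of basement membrane collagen, measured 9.72, 8.74 and 9.81 against 7.24, 7.29 and 7.29 (change 2.15 ± 0.26, adjusted p = 4.06e-06). In both genes the 21% O2 arrays were tight and 3% O2 array 2 lay between the groups. Crtap, a partner of these hydroxylases, rose by 1.16 ± 0.13 and the fibrillar collagen gene Col1a1 by 0.72 ± 0.16. Of 30 matrix glycoproteins and proteoglycans, 14 rose and 1 fell, or 4 with the replicate number as a block. The rises include the laminin subunit Lama4 (1.13) and perlecan, Hspg2 (0.88). Among 22 matrix proteases and inhibitors 5 rose and 3 fell. Mmp14, a membrane-bound collagenase, measured 10.82, 10.42 and 10.82 against 9.10, 9.07 and 9.12 (change 1.59 ± 0.12, adjusted p = 1.59e-08), and the aggrecanase Adamts1 rose by 1.94 ± 0.16 (adjusted p = 3.87e-08). The inhibitor Timp1 rose (1.28) while Timp2 fell (-0.93). Of 19 integrins, 7 rose and 1 fell. The fibronectin receptor subunit Itga5 rose by 1.31 ± 0.19, and Itgb8, an integrin of radial glia that activates TGF-beta, fell by 0.67 ± 0.13.

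TGF-beta signalling genes rose more often than they fell. Of 27 genes, 8 rose (29.6%) and 3 fell (11.1%), beside 11.7% and 13.3% of all genes, and 13 rose with the replicate block. Besides Lrrc32, rises included the latent TGF-beta binding protein Ltbp1 (1.60 ± 0.20) and the signal transducer Smad3, with 10.83, 10.30 and 10.83 at 3% O2 and 9.41, 9.66 and 9.63 at 21% O2 (change 1.08 ± 0.12, adjusted p = 2.07e-06). Pmepa1, a target and inhibitor of the pathway, moved down, with 8.07, 7.81 and 8.22 against 9.40, 9.24 and 9.28 (change -1.27 ± 0.12, adjusted p = 2.11e-07). The ligand gene Tgfb3 fell by 0.80 ± 0.10. Among 18 contractile genes and targets of YAP or SRF 6 rose and 5 fell, and the falls numbered 3 without 3% O2 array 1 or 2 or 21% O2 array 1 or 3. In the BMP list, 4 of 22 genes rose (18.2%) and 2 fell (9.09%). The ligand gene Bmp7 rose by 1.17 ± 0.15. The Id genes, which encode inhibitors of bHLH factors, split: Id1 measured 10.34 on each 3% O2 array against 9.23, 9.30 and 9.31 (change 1.06 ± 0.21, adjusted p = 0.000697), and Id4 measured 8.01, 8.00 and 8.10 against 9.44, 9.20 and 9.33 (change -1.29 ± 0.29, adjusted p = 0.00197).

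Markers of vascular and mesenchymal cells were examined beside the matrix genes. Among 19 endothelial markers 5 rose (26.3%) and 0 fell, beside 11.7% of all genes that rose, with a median change of 0.04. The summed signal of the list, as log2, lay at 12.00 to 12.17 at 3% O2 and 11.07 to 11.18 at 21% O2. That sum adds unlogged levels, so bright genes weigh most in it. Much of its gain came from Cd93, with group means of 10.78 at 3% O2 and 7.23 at 21% O2, a change of 3.55 as given above. Of the 19 genes, 12 had group means below a level of 7 in both groups. The defining receptor gene Kdr measured 6.71, 6.58 and 6.54 at 3% O2 and 6.48, 6.33 and 6.49 at 21% O2 and did not pass (0.17, adjusted p = 0.236). Pecam1, named here after its values were seen, measured 6.30 to 6.42 against 6.32 to 6.46. Emcn, a sialomucin of endothelium, rose by 1.17 ± 0.31 (adjusted p = 0.00783). Flt1, a VEGF receptor, measured 9.11, 7.42 and 9.11 against 7.23, 7.49 and 7.72, so that the groups overlapped through 3% O2 array 2. Its change was 1.07 ± 0.30 (adjusted p = 0.0128), or 1.63 without that array, and it did not pass without 3% O2 array 1 or 3 or 21% O2 array 1 (highest adjusted p = 0.0967). The count of endothelial markers that rose was 2 without 3% O2 array 1 or 21% O2 array 1, and 3 without 3% O2 array 2 or 3 or 21% O2 array 3. Among 23 markers of pericytes, fibroblasts and meninges 12 rose and 1 fell, with a summed log2 signal of 12.31 to 12.57 at 3% O2 and 11.80 to 11.86 at 21% O2. They include Postn and Col1a1, given above, and the growth factor Igf2, with 8.63, 8.11 and 8.75 against 6.94, 7.16 and 7.09 (change 1.43 ± 0.36, adjusted p = 0.00596). Dcn, a proteoglycan of fibroblasts, did not pass (1.56, adjusted p = 0.214, or 0.00545 with the block). The 5 red blood cell genes gave 0 rises and 0 falls, and 4 of them had group means below a level of 7 in both groups. The part of such cells in the matrix results was not tested.

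Most genes of insulin-like growth factor signalling rose. Of 14 genes of the system, 10 rose (71.4%) and 0 fell, with a median of 0.70. Irs2, an adaptor of the insulin and IGF receptors, measured 9.72, 9.64 and 9.71 at 3% O2 and 8.95, 8.95 and 8.94 at 21% O2 (change 0.74 ± 0.06, adjusted p = 1.62e-08). The binding protein genes Igfbp7 (1.80 ± 0.27) and Igfbp3 (1.44 ± 0.17) rose, and the ligand gene Igf1 did not pass (-0.10, adjusted p = 0.61). Of 26 genes of EGF and FGF receptors and their feedback, 15 rose and 3 fell, and 5 fell with the block. Spry1, a feedback inhibitor of receptor tyrosine kinases, measured 11.24, 11.57 and 11.41 against 9.67, 9.88 and 9.71 (change 1.66 ± 0.18, adjusted p = 1.24e-06). Etv4, a transcription factor switched on by FGF, rose by 1.11 ± 0.09 and the receptor gene Fgfr1 by 0.57 ± 0.07. The groups of these were separated. Il17rd, another inhibitor of FGF signalling, fell by 0.62 ± 0.11. Of 24 vascular growth and tone factors, 9 rose and 4 fell, and the falls numbered 2 without 3% O2 array 1 or 2 or 21% O2 array 2 or 3. The apelin gene Apln measured 10.64, 10.51 and 10.67 against 8.05, 8.65 and 8.52 (change 2.20 ± 0.28, adjusted p = 8.12e-06). The co-receptor genes Nrp2 (1.62 ± 0.12) and Ramp1 (1.00 ± 0.09) rose, and the endothelin receptor gene Ednrb fell by 0.60 ± 0.13. Immediate early genes gave 8 rises and 2 falls of 26, with Dusp1 at 1.05 ± 0.11 and Klf10 at 1.02 ± 0.17. The falls numbered 0 without 3% O2 array 1 or 2 or 21% O2 array 1 or 3, and 1 without 3% O2 array 3 or 21% O2 array 2.

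A list of 15 D cyclins, CDKs, CDK inhibitors and RB genes gave 6 rises and 1 fall, while 8 did not pass. All of the D cyclins, which couple growth factors to the cycle, were among the rises. Ccnd2 measured 12.69, 12.79 and 12.70 at 3% O2 and 11.33, 11.35 and 11.35 at 21% O2 (change 1.38 ± 0.11, adjusted p = 4.12e-08). Ccnd1 measured 12.30, 12.03 and 12.32 against 10.80, 11.03 and 11.01 (change 1.27 ± 0.17, adjusted p = 1.57e-05), and Ccnd3 rose by 0.52 ± 0.06. Of 35 DNA replication genes, 16 rose and 0 fell, with a median of 0.36, and 9 rose without 21% O2 array 2. The S phase activator gene E2f1 rose by 0.89 ± 0.14 (adjusted p = 6.16e-05), the ribonucleotide reductase gene Rrm2 by 0.75 ± 0.15 and the helicase gene Mcm3 by 0.75 ± 0.17. Mitosis genes gave 8 rises and 0 falls of 34, beside 11.7% of all genes that rose, with a median of 0.19, and 3, 4 and 3 rises without 3% O2 array 1, 3% O2 array 3 and 21% O2 array 2. The rises numbered 13 with the 6 arrays fitted alone and 4 with the 12 midbrain arrays alone. The mean level of the mitosis list was 10.55 at 3% O2 and 10.34 at 21% O2. That lies in the range of the 4987 brightest genes, of which 40.7% passed in either direction. The proliferation marker Mki67 measured 11.88, 11.55 and 11.87 against 11.58, 11.50 and 11.49 and did not pass (0.24, adjusted p = 0.108). Its groups overlapped through 3% O2 array 2.

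Circadian clock genes rose in 12 of 18 cases and fell in 0, with a median of 0.51. Hlf, a PAR bZIP output factor, measured 9.63, 9.34 and 9.70 at 3% O2 and 7.87, 8.16 and 7.91 at 21% O2 (change 1.58 ± 0.13, adjusted p = 5.36e-08). Nr1d1, the repressor REV-ERB alpha, measured 10.19, 9.51 and 10.19 against 8.43, 8.44 and 8.46 (change 1.52 ± 0.17, adjusted p = 1.53e-06), and Per1 rose by 0.79 ± 0.10. Both the HIF target list and this one hold Bhlhe40. The time of day of collection is not given. Among 21 oxygen-dependent demethylases 3 rose and 5 fell. The histone demethylase genes Kdm6a (-0.67 ± 0.10) and Kdm4a (-0.36 ± 0.05) fell, and the dioxygenase gene Jmjd6 rose (0.61 ± 0.09). Of 20 interferon response and MHC genes, 2 rose and 1 fell. These rises were large in Ifitm3, an antiviral membrane protein, with 11.39, 10.71 and 11.28 against 9.40, 9.15 and 9.60 (change 1.75 ± 0.25, adjusted p = 2.65e-05), and smaller in the peptide transporter Tap1 (0.73 ± 0.08).

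Wnt and hedgehog genes changed without a shared direction. Of 35 Wnt genes, 9 rose (25.7%) and 5 fell (14.3%), beside 11.7% and 13.3% of all genes. The receptor gene Fzd1 (0.81 ± 0.11) and the co-receptor gene Lrp5 (0.77 ± 0.11) rose. Nkd1, a feedback inhibitor that Wnt signalling switches on, measured 9.23, 9.76 and 9.37 at 3% O2 and 10.67, 10.75 and 10.49 at 21% O2 (change -1.18 ± 0.21, adjusted p = 0.000309), and the ligand gene Wnt7b fell by 0.86 ± 0.17. Of 11 hedgehog genes, 0 rose and 3 fell, among them the receptor and target Ptch1, with 11.39, 11.38 and 11.38 against 11.87, 11.82 and 11.82 (change -0.46 ± 0.07, adjusted p = 8.65e-05).

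Notch pathway genes were more often lower than higher: of 26 genes, 3 rose and 9 fell. The ligand gene Dll1, made by cells on the way to commitment, measured 9.89, 9.88 and 9.92 at 3% O2 and 10.97, 11.11 and 10.94 at 21% O2 (change -1.11 ± 0.11, adjusted p = 5.85e-07). Dll3 measured 8.98, 8.43 and 8.86 against 10.44, 10.28 and 10.30 (change -1.58 ± 0.27, adjusted p = 0.000196). Mfng, a glycosyltransferase that modifies Notch receptors, measured 7.68, 7.61 and 7.67 against 8.98, 8.99 and 8.93 (change -1.32 ± 0.10, adjusted p = 1.47e-08). The 2 main Notch effectors of neural progenitors diverged. Hes5 measured 9.75, 9.62 and 9.74 against 11.24, 11.26 and 11.12 (change -1.50 ± 0.23, adjusted p = 4.58e-05). Hes1, which other pathways can also induce, measured 10.06, 10.28 and 10.18 against 9.10, 9.33 and 9.20 (change 0.96 ± 0.20, adjusted p = 0.00122). Every array of the groups was separated in these 5 genes.

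Proneural and commitment factors gave 0 rises and 7 falls of 21, a share of 33.3% that fell beside 13.3% of all genes. Neurog2, a bHLH factor that drives neuronal fate, measured 7.19, 7.32 and 7.21 at 3% O2 and 7.82, 7.90 and 7.97 at 21% O2 (change -0.66 ± 0.06, adjusted p = 1.32e-07). Gadd45g, which marks cells leaving the cycle to become neurons, measured 8.39, 8.42 and 8.40 against 9.57, 9.48 and 9.51 (change -1.11 ± 0.08, adjusted p = 1.62e-08). Sox4, a factor of neuronal precursors, fell by 0.65 ± 0.07. This list shares Dll1, Dll3 and Mfng with the Notch list. Among 16 markers of neural stem cells and radial glia 1 rose and 3 fell. Sox3 fell by 0.80 ± 0.12 (adjusted p = 4.47e-05) and Pax6 by 0.53 ± 0.13 (adjusted p = 0.00524), and Prom1, the surface marker CD133, rose by 0.48 ± 0.10 (adjusted p = 0.00178).

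**Figure D3:**
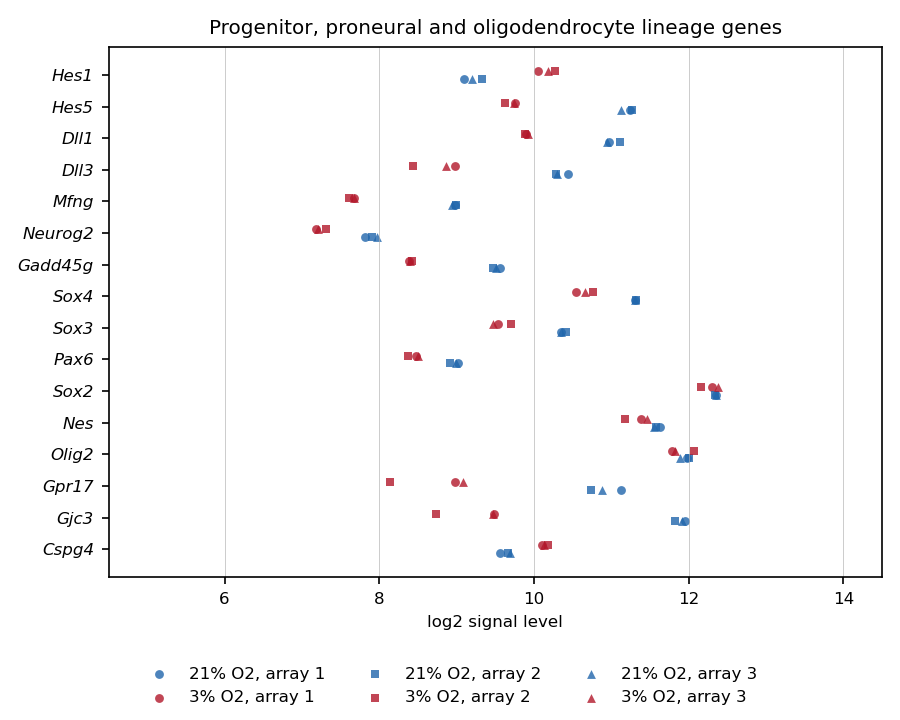
Log2 signal level (x axis) of 16 progenitor, proneural and oligodendrocyte lineage genes on each of the 6 arrays (red, 3% O2; blue, 21% O2; circle, square and triangle for arrays 1, 2 and 3). Hes5, Dll1, Dll3 and Mfng lie lower at 3% O2 with no overlap, Hes1 lies higher, and the symbols of Sox2 and Olig2 overlap between the groups.

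Neuronal genes were mixed, with 3 rises (12%) and 6 falls (24%) of 25, beside 11.7% and 13.3% of all genes, and 6 rises with the replicate block. Synapsin, Syn1, fell by 0.71 ± 0.07 (adjusted p = 2.28e-07) and the internexin gene Ina by 1.11 ± 0.13 (adjusted p = 3.39e-06). The dendritic marker Map2 measured 12.01, 12.14 and 12.04 at 3% O2 and 12.36, 12.34 and 12.35 at 21% O2 (change -0.29 ± 0.04, adjusted p = 6.92e-05). Tubb3, a tubulin of young neurons, measured 7.48, 6.94 and 6.72 against 7.82, 7.79 and 7.49. The lowest 21% O2 array exceeded the highest 3% O2 array only slightly, and the fall of 0.66 ± 0.20 (adjusted p = 0.0188) lost its call without 3% O2 array 2 or 3 or 21% O2 array 1 or 2 (highest adjusted p = 0.121). Stmn2, a growth cone protein, and Nefl, the light neurofilament, rose by 0.89 ± 0.18 and 0.62 ± 0.12. Among 16 markers of midbrain dopamine neurons and the floor plate 1 rose (6.25%) and 2 fell (12.5%), shares under or near those of all genes. Of these markers, 9 had group means below a level of 7 in both groups, where few genes could pass. The gene of the dopamine-synthesising enzyme, Th, measured 6.89, 6.98 and 6.71 against 6.85, 6.90 and 6.75 and did not pass (0.03, adjusted p = 0.925).

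Oligodendrocyte lineage genes gave 1 rise (5.26%) and 3 falls (15.8%) of 19, beside 11.7% and 13.3% of all genes, with a median of -0.22. The falls numbered 7 with the replicate block or with the 6 arrays fitted alone. Beside Gjc3 and Gpr17, the precursor receptor gene Pdgfra measured 10.44, 9.58 and 10.51 at 3% O2 and 11.16, 10.82 and 10.98 at 21% O2. It did not pass without the block (change -0.81 ± 0.31, adjusted p = 0.065) and passed with it (adjusted p = 0.000987). Sox10, a transcription factor of the lineage, gave -0.74 ± 0.36 (adjusted p = 0.157, or 0.00296 with the block). In each of these, 3% O2 array 2 was the lowest of all 6 arrays. Not every gene of the lineage was lower. Olig2, which specifies the lineage and is also made by progenitors in culture, measured 11.79, 12.07 and 11.83 against 11.98, 12.00 and 11.89 (change -0.06, adjusted p = 0.851) with overlapping groups. Cspg4 (NG2), a surface proteoglycan of precursors and pericytes, measured 10.10, 10.19 and 10.13 against 9.56, 9.67 and 9.70 (change 0.50 ± 0.10, adjusted p = 0.000924).

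Astrocyte markers gave 3 rises (13.0%) and 4 falls (17.4%) of 23, beside 11.7% and 13.3% of all genes. There were 1 or 2 falls without 3% O2 array 1 or 2 or 21% O2 array 1 or 3. The falls numbered 9 with the 12 midbrain arrays alone. Their mean level was 10.17, 9.74 and 10.18 at 3% O2 and 10.25, 10.11 and 10.24 at 21% O2, so that 3% O2 array 2 lay under all other arrays. Gfap, the astrocyte filament, measured 7.32, 6.40 and 7.27 against 7.78, 7.43 and 8.00 and did not pass (change -0.74 ± 0.35, adjusted p = 0.148). The hyaluronan receptor gene Cd44 rose by 0.81 ± 0.15 and the acyl-CoA synthetase gene Acsbg1 by 0.58 ± 0.09, while the neurotensin receptor gene Ntsr2 fell by 0.73 ± 0.15. Of 12 genes of ependymal cells and motile cilia, 0 rose and 3 fell, among them Foxj1, the master regulator of motile cilia (-0.27 ± 0.05, adjusted p = 0.000523). Of 10 markers of neural crest, Schwann cells and melanocytes, 0 rose and 2 fell.

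**Figure D4:**
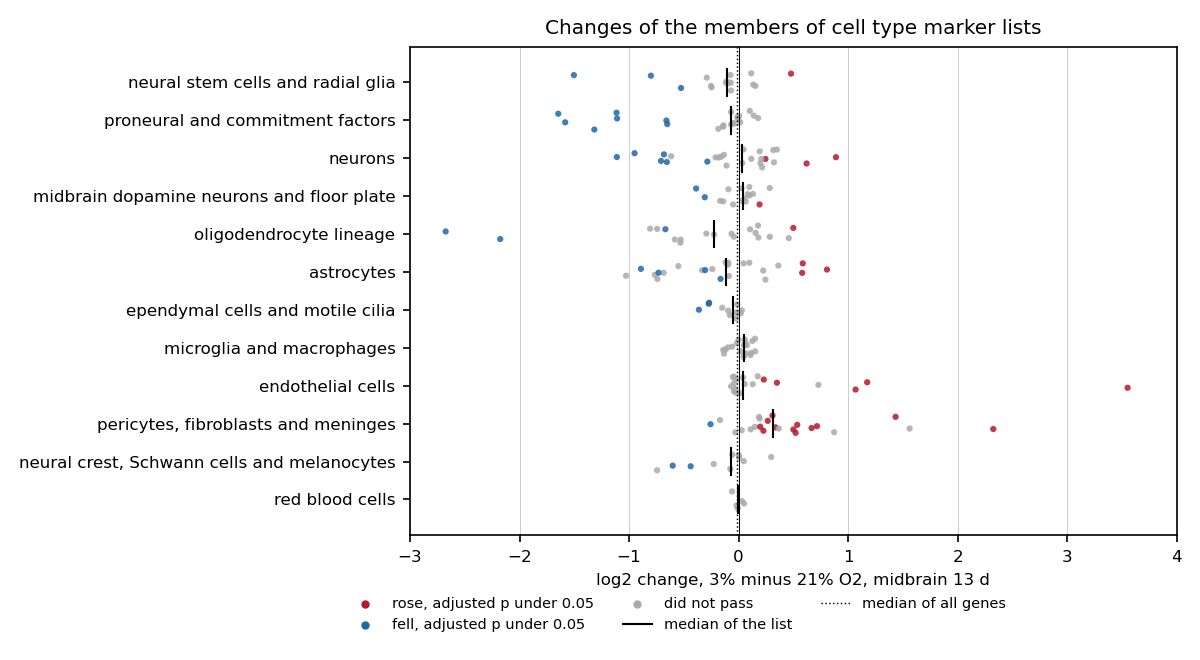
Log2 change at 13 d (x axis, 3% minus 21% O2) of every measured member of 12 cell type marker lists, 1 point per gene (red, rose; blue, fell; grey, did not pass at an adjusted p of 0.05), with the list's median as a black bar and the median of all genes as a dotted line. The median of the pericyte, fibroblast and meninges list (0.31) lies farthest to the right and that of the oligodendrocyte lineage (-0.22) farthest to the left, and the isolated point at 3.55 among the endothelial genes is Cd93.

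Families of short or abundant RNAs were counted in the same way, beside 11.7% of all genes that rose and 13.3% that fell. Of 57 cytosolic ribosomal protein genes, 2 rose and 0 fell. Among 31 histone genes 0 rose and 5 fell, or 3 without 3% O2 array 1 or 3 or 21% O2 array 1 or 3, and among 51 small nucleolar RNA genes 0 rose and 5 fell, or 2 without 3% O2 array 1 and 3 without 21% O2 array 1 or 3. Of 291 microRNA symbols, which include host transcripts, 3 rose and 3 fell. The rises numbered 5 without 3% O2 array 2 and 1 without 3% O2 array 3, and the falls 1 without 21% O2 array 2 or 3. The array probes cover hairpin genes, so these values are not levels of mature microRNAs. Mir15b measured 5.36, 5.31 and 5.78 at 3% O2 and 5.30, 5.12 and 5.06 at 21% O2 (change 0.33, adjusted p = 0.0125). All of these values lie under 6.46, the 95th percentile of the olfactory receptor genes, as do the group means of Mir16-1 (6.25 and 6.05), so neither hairpin was measured clearly above the level of genes without expression. The call of Mir15b was lost without 3% O2 array 3 (0.18, adjusted p = 0.0993) or 21% O2 array 3 (adjusted p = 0.0693). Mir16-1 gave 0.20 (adjusted p = 0.0222, or 0.0523 with the block), with adjusted p up to 0.0952 on leaving out 3% O2 array 1 or 3 or 21% O2 array 2 or 3. Mir210, the hairpin of the best known hypoxia microRNA, measured 8.94, 9.12 and 8.97 against 8.82, 9.03 and 8.86 and did not pass (0.11, adjusted p = 0.448). The mature sequences of the 5' arms of the first pair share their seed, and that of the 3' arm of the last differs. They are shown from RefSeq GRCm38.p6 because the seed, bases 2 to 8 in capitals, defines the targets of a microRNA.
mmu-miR-15b-5p: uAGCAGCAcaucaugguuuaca
mmu-miR-16-5p: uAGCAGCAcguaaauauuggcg
mmu-miR-210-3p: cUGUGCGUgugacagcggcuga

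The response at 13 d was compared with the response of midbrain cultures at 48 h through the difference of the 2 responses, which share no array. The 48 h arrays belong to run 2 by the labels, and a run effect that adds equally at both oxygen levels cancels in this difference. Other run effects do not cancel, and culture time and run cannot be told apart here. Of 19946 genes, 1433 responded more positively at 13 d (7.18%) and 1706 more negatively (8.55%), 15.7% in all. Among 20 panel genes, 6 differed. The panel was chosen with earlier results of these data known, and Cd93, Col12a1 and Abca1 are among the largest changes at 13 d. The difference uses the same 13 d arrays, so for these genes it is not independent of their choice. The response of Cd93 was 3.55 at 13 d and 0.75 at 48 h, a difference of 2.81 ± 0.45 (adjusted p = 0.000293). Col12a1 responded with 2.89 and 0.36 (difference 2.53 ± 0.37, adjusted p = 0.000104) and Abca1 with -2.09 and -0.33 (difference -1.77 ± 0.34, adjusted p = 0.00121). The other 3 were HIF-related genes and differed in both directions. Adm responded with 2.11 at 13 d and 1.02 at 48 h (difference 1.09 ± 0.23, adjusted p = 0.00258). Ldha responded with 0.53 and 1.15 (difference -0.62 ± 0.15, adjusted p = 0.00666). Hif1a responded with -0.39 and -0.01 (difference -0.37 ± 0.09, adjusted p = 0.00558). Other targets gave close values without a difference that passed: Vegfa 1.30 and 1.50 (difference -0.20 ± 0.32), Slc2a1 1.02 and 1.18 (-0.15 ± 0.29) and Egln3 1.22 and 1.12 (0.10 ± 0.30).

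By list, the ATF4 and amino acid genes responded more positively at 13 d in 21 of 32 cases, the p53 targets in 14 of 23, the insulin-like growth factor system in 8 of 14, the clock genes in 10 of 18, the tRNA synthetases in 10 of 18 and the cholesterol synthesis genes in 9 of 19, or 14 with the compared arrays alone. Proneural factors responded more negatively in 7 of 21 cases. Glycolysis genes were split, with 3 of 18 more positive and 4 more negative. Of the HIF targets outside glycolysis, 14 of 37 responded more positively and 2 more negatively. These shares stand beside 7.18% and 8.55% of all genes. The count of 8 for the insulin-like growth factor system was 5 without 13 d 3% O2 array 1 or 3 or 13 d 21% O2 array 2. Of the glycolysis counts, that of 3 was 1 without 48 h 3% O2 array 2 or 3, 48 h 21% O2 array 1 or 2, 13 d 3% O2 array 1 or 3 or 13 d 21% O2 array 1, and that of 4 was 7 without 48 h 3% O2 array 2. The count of 2 for the HIF targets was 1 without 48 h 3% O2 array 1, 13 d 3% O2 array 1 or 2 or any one 13 d 21% O2 array.

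The response at 13 d was also set against that of cortex cultures labelled 48 h. Region, culture time and array run all differ between these groups, and which of them goes with a difference cannot be told apart. The cortex response with a list of changes of similar length was taken, so the choice came from results of these data. Cortex cultures labelled 13 d were not compared here. Of 19946 genes, 660 responded more positively in the midbrain 13 d cultures (3.31%) and 712 more negatively (3.57%), 6.88% in all. Of the probe sets that differed, 48.1% were more positive, or 60.3% when each array was centred on its median. The number of probe sets that differed was 1540 (6.58% of those tested), and it was 833 without midbrain 3% O2 array 1, 938 without midbrain 3% O2 array 3, 987 without midbrain 21% O2 array 1, 2802 without cortex 21% O2 array 1 and 999 without cortex 21% O2 array 3. Among the 20 panel genes 1 differed, Adm, with responses of 2.11 and 1.15 (difference 0.96 ± 0.23, adjusted p = 0.0149). Cd93 (3.55 and 2.20, adjusted p = 0.0822), Col12a1 (2.89 and 1.71, adjusted p = 0.061) and Abca1 (-2.09 and -1.72, adjusted p = 0.629) responded with the same sign in both, and their differences of 1.35 ± 0.45, 1.18 ± 0.37 and -0.37 ± 0.34 did not pass. That of Cd93 passed without cortex 21% O2 array 2 (adjusted p = 0.00988) and that of Col12a1 without cortex 3% O2 array 1 or 21% O2 array 1 (adjusted p = 0.0189 and 0.00464). Both passed among the brighter probe sets (adjusted p = 0.0496 and 0.0356) and with array weights (adjusted p = 0.0044 and 4.86e-05), and Col12a1 passed with quantile normalization (adjusted p = 0.0496).

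**Figure D5:**
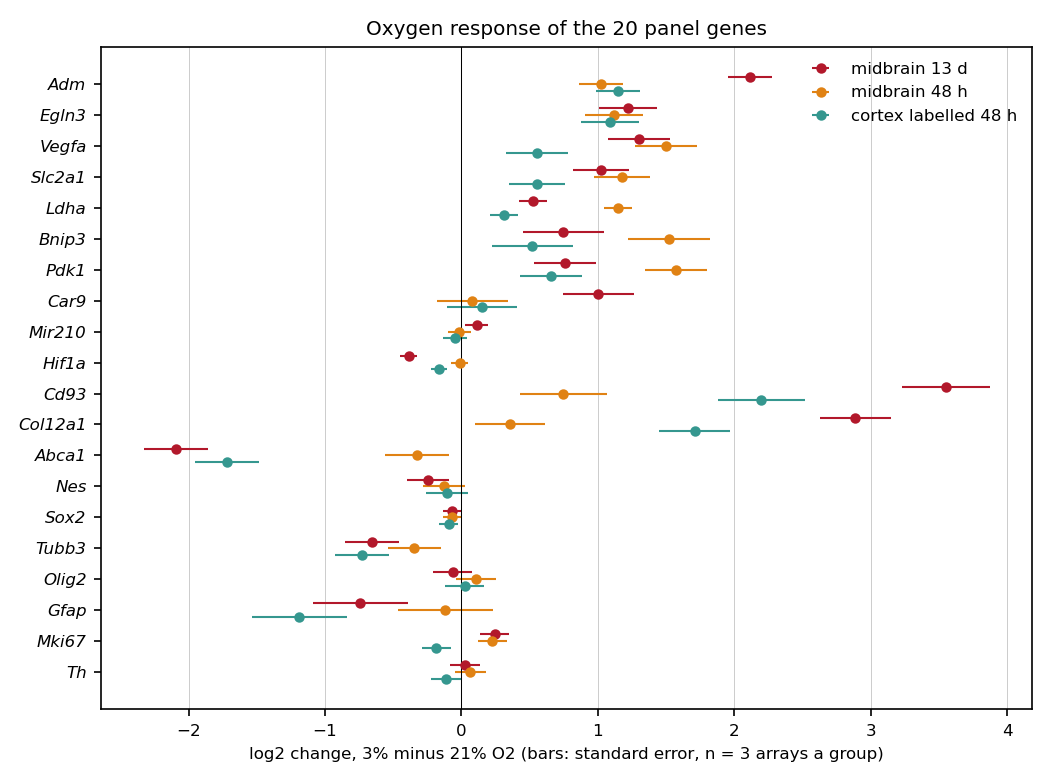
Log2 change from 21% to 3% O2 (x axis) of 20 panel genes in midbrain 13 d, midbrain 48 h and cortex labelled 48 h cultures, as points with bars of 1 standard error (n = 3 arrays a group). The standard error comes from the fit over all 24 arrays and is the same for the points of a gene. Cd93 and Col12a1 lie farther right at 13 d (3.55 and 2.89) than in the midbrain at 48 h (0.75 and 0.36), while the points of Sox2 lie near 0 in all of them.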

How the data were processed

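Whole-transcript expression was measured on Affymetrix MoGene 1.0 ST arrays. The authors deposited 1 value per probe set and array on a log2 scale, as read from a range of 4.66 to 14.47 over the arrays compared. The normalization applied to them was not given in the sources used here. The deposited log2 values were used unchanged. Probe sets were named through the platform annotation, and a gene with several was represented by the one with the highest mean. Array precision was limited by 3 arrays a group. Replicate arrays differed with an SD of at least 0.0904, so none was treated as a duplicate.

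Means of 8 groups over 24 arrays were fitted with limma 3.58.1 in R 4.3.3 (16 residual degrees of freedom, eBayes, two-sided, Benjamini-Hochberg over 23410 probe sets, threshold 0.05). The members and lists were chosen with earlier results of these data known. Named genes are the 12 largest rises and falls without overlap between the groups, a panel, and in each list up to 5 per direction by smallest p. Arrays with the same replicate number deviated together (r = 0.123, 0.421 and 0.306), so the number was tried as a block. That pairing comes from the data and not from the labels, and pairs of arrays 1 and 3 with different numbers reached r = 0.167 and 0.164. Other alternatives were all probe sets, brighter probe sets, quantile normalization, median centring, another variance model, array weights, smaller sets of arrays and each array left out.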

Additional observations from a re-analysis of the deposited data

Results flagged for a closer look

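Genes of the panel whose response to low oxygen differed from that of another group of cultures, by the test of the difference itself, are collected here. The panel was chosen with earlier results of these data known, and Cd93, Col12a1 and Abca1 are among the largest changes at 13 d. Their differences reuse the 13 d arrays and are not independent of that choice. Array run also differs between these groups, and its part cannot be told apart from that of culture time. Against the midbrain at 48 h, the response at 13 d was larger by 2.81 in Cd93, by 2.53 in Col12a1 and by 1.09 in Adm on the log2 scale. The difference was -1.77 in Abca1, -0.62 in Ldha and -0.37 in Hif1a. Against the cortex cultures labelled 48 h, the response of Adm was larger by 0.96. Each of these passed the limma test over all probe sets, and Adm was the panel gene that did so against both. The 6 differences from the midbrain at 48 h also passed under every alternative run, including the omission of each array.

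A signal was also present in data that the counts of genes leave out. Of 5446 probe sets without a gene symbol, 468 passed the same test between 3% and 21% O2 (8.59%) when they were fitted with the named ones, beside 23.9% of the named probe sets. They carry no name in the annotation used here.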

How the results depend on the processing

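The number of probe sets that differed between 3% and 21% O2 at 13 d was 5584. It lay between 4713 and 6700 under the other normalizations, filters, variance model and sets of arrays, between 4418 and 5400 on leaving out each array, and at 9494 with array weights. Against the midbrain at 48 h the number was 3536, between 2738 and 3531 on leaving out each array, and 5708 with array weights. Against the cortex it was 1540, between 833 and 2802 on leaving out each array, 811 with the compared arrays alone and 6441 with array weights. The replicate block gave 6052, 4137 and 2027, and 5322 of the 5584 calls were kept. The compared arrays alone with the block, an alternative added after the data were seen, gave 7404, 4337 and 1238. Of 157 named genes that passed, 147 kept their call under every alternative run, 10 lost it in at least 1 and 0 changed direction. Of 20 that did not pass, 14 passed under at least 1 alternative. Among these 20, 9 passed with the compared arrays alone, 8 with the block and 13 with array weights. Signs turned for some values near 0. On leaving out each array, the change of Th lay between -0.0343 and 0.10, that of Vhl between -0.0796 and 0.0041, the difference from 48 h between -0.36 and 0.18 for Slc2a1 and between -0.14 and 0.42 for Egln3, and the difference from the cortex between -0.64 and 0.0226 for Abca1. The Egln3 difference was -0.0168 with quantile normalization. The block changed no call of a gene named in the report other than those given there, and besides the list counts given there it moved no count of over 2 genes by more than 1.5 times. Array weights moved 49 of 106 list counts by over 1.5 times, quantile normalization 7 and median centring 6. With 3 arrays a group and no statement of separate cultures, small changes and dim probe sets were the least certain. The cause of each shift was not tested.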
